A study of Homo sapiens with 6 samples.

Results

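The genes described here are noncoding RNA genes of the small nucleolar RNA (snoRNA) host class and a few noncoding genes usually discussed with them. They were chosen by name and by level: every gene whose symbol is SNHG followed by digits, together with GAS5, ZFAS1, EPB41L4A-AS1, DANCR, CYTOR and MIR22HG, provided that its mean over all 6 samples was at least 0.5 CPM (counts per 1e6 counts of the library). Of 60683 genes in the count table, 34 carried one of these names and 28 passed the bound on level. The rule does not use the difference between the groups, but the set was proposed with earlier results of these data known, so its counts are a description and not independent evidence of a direction. All 28 were also among the 15321 genes kept for testing.

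Gene expression was measured by mRNA sequencing in RCC4 cells, a human line from a clear cell renal carcinoma that lacks a working VHL tumour suppressor. 3 samples of the parental line, labelled wild type, were compared with 3 samples of the same line with ATF4 knocked out. ATF4 is the transcription factor that carries the integrated stress response, which cells use when amino acids are short or proteins fold badly. Both groups share the VHL defect of the line, and nothing in the labels tells how ATF4 was removed, if the knockout cells are 1 clone or a pool, or if the 3 samples of a group were separate cultures, so the p-values here cover the spread among 3 libraries a group, and that spread may be technical.

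snoRNAs are short guide RNAs that direct chemical changes of ribosomal and spliceosomal RNA. The C/D class guides methylation of ribose and the H/ACA class guides conversion of uridine to pseudouridine. In human cells most of them are cut out of the introns of longer host genes. The spliced exons of a noncoding host are then exported and, because they carry short reading frames, many are removed by nonsense-mediated decay when ribosomes translate them. Many hosts also begin with a cytosine followed by a run of pyrimidines, the 5′ terminal oligopyrimidine (5′TOP) motif, which ties the translation of an RNA to mTORC1 activity. GAS5 was named for its accumulation in growth-arrested cells.

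Total counts were 41002611 to 46755358 per sample. The chi-square per degree of freedom was 3.59 to 5.80 between libraries of the same group and 37.89 to 44.12 between parental and knockout libraries, where sampling noise alone gives about 1. ATF4 transcripts were still counted in the knockout, at 214 ± 8.04 CPM against 244 ± 5.97 CPM in the parental line (SD, n = 3), which says nothing about the state of its coding sequence. The log2 fold change of ATF4 was -0.19, and the 50 tested genes on either side of it on chromosome 22 had a median of -0.25. With that median removed, ATF4 was at 0.06 and was not called. All 11 renal and clear cell carcinoma markers examined reached 1 CPM, with summed levels, most of them VIM, of 6584 to 6982 CPM in the parental line and 7445 to 7631 CPM in the knockout. CA9 (mean 16.6 CPM in the parental line and 96.9 CPM in the knockout) and NDUFA4L2 (276 and 471 CPM) were higher in every knockout sample, and PAX8 (207 to 222 CPM against 234 to 241 CPM) and KRT18 (206 to 214 CPM against 220 to 226 CPM) were lower in every one. Of 13 markers of leukocytes, endothelium, fibroblasts or pericytes and red cells, 3 reached 1 CPM (ACTA2, PDGFRB and RGS5), CD3E, CD14 and HBA1 were at 0 in every library, and the sum was 57.8 to 66.6 CPM in the parental line and 47.1 to 49.8 CPM in the knockout. The part of these marker levels in the results was not tested.

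Of the 28 host genes, 12 were lower in the knockout, 3 were higher and 13 did not pass the test (edgeR's quasi-likelihood test, Benjamini-Hochberg adjusted p below 0.05 over all tested genes). The share called lower was 42.9%, against 20.8% of all 15321 tested genes, and the share called higher was 10.7%, against 21.2% of all tested genes. The median log2 fold change of the 28 genes was -0.14, and that of all tested genes was 0.01. By raw separation of the samples, 11 host genes had all 3 knockout values below all 3 parental values, a pattern seen in 24.3% of tested genes, and 4 had them all above, a pattern seen in 25.3%. The changes were small: those called lower lay between -0.46 (SNHG19) and -0.16 (SNHG8 and ZFAS1) on the log2 scale, and those called higher between 0.09 (SNHG29) and 0.14 (SNHG6). In bulk RNA, fewer cells expressing a gene and less RNA per cell cannot be told apart.

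**Figure D1:**
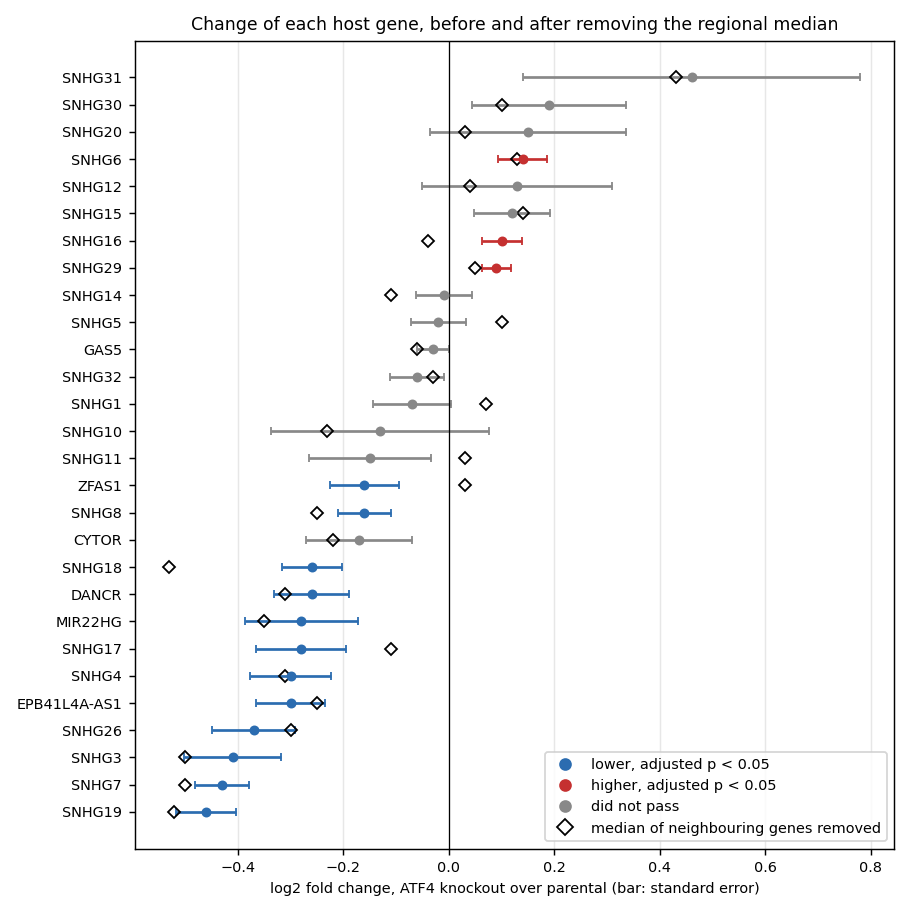
Log2 fold change of each of the 28 host genes, ATF4 knockout over parental (x axis; points are the edgeR estimate, bars its standard error, n = 3 per group), with open diamonds for the value after the median change of the neighbouring genes is removed. The blue points, called lower, run from -0.46 for SNHG19 to -0.16 for SNHG8, while the 3 red points, called higher, lie between 0.09 and 0.14.

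The members called lower by the largest margins host only 1 or 2 snoRNAs each. So do SNHG5, SNHG11, SNHG15, SNHG30, SNHG31 and SNHG32, which were not called, and SNHG6, which was called higher. 1 snoRNA from each of 6 hosts called lower is shown because snoRNAs are the products for which such hosts are named. SNHG26 (log2 fold change -0.37) and SNHG4 (-0.30) fell by more than SNHG18 and DANCR (-0.26 each) but are not among the 6. The sequences were read from the GENCODE 29 transcripts (GRCh38). Capitals mark the C box and the D box of C/D snoRNAs, or the ACA box that lies 3 bases from the 3′ end of H/ACA snoRNAs.
SNORD60 in SNHG19, C/D, chr16:2155023-2155105, minus strand: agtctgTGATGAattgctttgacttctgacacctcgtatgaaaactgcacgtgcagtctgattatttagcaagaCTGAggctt
SNORA17A in SNHG7, H/ACA, chr9:136726747-136726879, minus strand: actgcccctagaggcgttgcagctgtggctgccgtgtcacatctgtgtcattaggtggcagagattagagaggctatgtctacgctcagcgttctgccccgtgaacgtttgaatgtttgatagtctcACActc
SNORA73B in SNHG3, H/ACA, chr1:28508559-28508762, plus strand: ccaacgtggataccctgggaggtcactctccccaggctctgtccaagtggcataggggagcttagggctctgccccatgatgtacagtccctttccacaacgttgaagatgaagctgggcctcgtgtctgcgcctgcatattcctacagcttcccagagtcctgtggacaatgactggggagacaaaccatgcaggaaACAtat
SNORD123 in SNHG18, C/D, chr5:9548836-9548905, plus strand: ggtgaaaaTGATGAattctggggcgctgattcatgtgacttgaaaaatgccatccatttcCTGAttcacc
SNORA13 in EPB41L4A-AS1, H/ACA, chr5:112161485-112161617, plus strand: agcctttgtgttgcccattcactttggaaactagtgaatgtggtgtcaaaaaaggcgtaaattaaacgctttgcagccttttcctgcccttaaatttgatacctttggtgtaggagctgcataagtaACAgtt
SNORA26 in DANCR, H/ACA, chr4:52713249-52713370, plus strand: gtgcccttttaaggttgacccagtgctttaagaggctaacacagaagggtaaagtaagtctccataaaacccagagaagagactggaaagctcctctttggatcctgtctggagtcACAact

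SNHG19 (ENSG00000260260, chr16:2154797-2155358, GRCh38, minus strand), the short host of SNORD60, showed the largest fall of the 28. Its parental levels of 28, 27.8 and 27.3 CPM compared with 20.7, 20.1 and 19.7 CPM in the knockout samples. The groups were far apart compared with the spread inside them. The log2 fold change was -0.46 (SE 0.057, adjusted p = 1.294e-09, edgeR). Per length of its exons it was the second most abundant host in the parental line, at 81.1 CPM per kb.

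SNHG7 (ENSG00000233016, chr9:136721366-136728184, minus strand) hosts the H/ACA snoRNAs SNORA17A and SNORA17B. Its parental levels of 37.6, 39.5 and 35.5 CPM compared with 27.3, 28.2 and 28 CPM without ATF4, and the groups did not overlap. The log2 fold change was -0.43 (SE 0.052, adjusted p = 6.868e-10). Exons of DIPK1B, a protein-coding gene on the opposite strand, share 25.2% of the exon bases of SNHG7. DIPK1B was itself lower, at 1.6 ± 0.119 CPM in the knockout against 3.06 ± 0.217 CPM (log2 fold change -0.93, adjusted p = 6.828e-06). The strand setting of the counting is not known here, so reads in the shared stretch cannot be assigned with certainty. More reads were counted for SNHG7 than for DIPK1B in every sample.

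SNHG3 (chr1:28505980-28510892, plus strand), host of SNORA73A and SNORA73B, stood at 11.4, 9.55 and 11.4 CPM in parental cells, compared with 7.42, 8.76 and 8.18 CPM in knockout cells. The lowest parental value still lay above the highest knockout value. The log2 fold change was -0.41 (SE 0.092, adjusted p = 2.337e-04). SNHG26 (chr7:22854178-22861579, plus strand), host of SNORD93, gave 13.4, 15.1 and 15.4 CPM against 12.1, 11.3 and 10.7 CPM. Again no knockout sample reached the parental range, with a log2 fold change of -0.37 (SE 0.079, adjusted p = 1.192e-04).

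EPB41L4A-AS1 (chr5:112160526-112164276, plus strand), which holds SNORA13, stood at 21.2, 22.6 and 19.8 CPM in parental cells, compared with 16.5, 18.5 and 16.6 CPM in knockout cells. The groups did not overlap, and the log2 fold change was -0.30 (SE 0.066, adjusted p = 1.420e-04). Exons of EPB41L4A on the opposite strand cover 49.6% of its exon bases, but that gene had only 3 to 10 counts in any library. SNHG4 (chr5:139274102-139284899, plus strand), a host of 2 H/ACA snoRNAs, was at 15.9, 15.2 and 15.4 CPM against 14.2, 11.7 and 12 CPM. The first knockout sample came close to the parental values without reaching them, and the log2 fold change was -0.30 (SE 0.077, adjusted p = 0.00111). Exons of the MATR3 entry ENSG00000280987 on the same strand share 14.0% of the exon bases of SNHG4, with 1 or 2 counts for that entry in every library. How shared reads were counted is unknown here, so these low counts may reflect the counting and do not give the level of MATR3. Exons of SIL1 on the opposite strand, itself called lower (log2 fold change -0.19), share 2.6%. Reads in these stretches cannot be assigned with certainty.

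6 further hosts were called lower by smaller amounts. SNHG17, which holds the SNORA71 family, changed by -0.28 (adjusted p = 0.00508), or by -0.18 and without a call when the first knockout sample was left out (adjusted p = 0.0888). MIR22HG, the microRNA precursor gene described further on, changed by -0.28 (adjusted p = 0.03). SNHG18, host of SNORD123, changed by -0.26 (adjusted p = 1.303e-04), and DANCR, a long noncoding RNA named for opposing differentiation and the host of SNORA26, by -0.26 (adjusted p = 0.00256). In all 4 the knockout samples lay below the parental ones. SNHG8 changed by -0.16 (adjusted p = 0.0092), from 42.5, 46.3 and 39.2 CPM to 38.2, 38.5 and 38.1 CPM. Without the highest parental sample, the second, its log2 fold change was -0.09 and it was no longer called (adjusted p = 0.176). ZFAS1, which holds the SNORD12 family, changed by -0.16 (adjusted p = 0.0467), its groups overlapped, and its call was lost or turned in 11 of 14 alternative analyses, among them each sample left out except the third parental one (log2 fold changes of -0.18 to -0.10).

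The 3 hosts called higher all carry C/D snoRNAs. SNHG29 (chr17:16438822-16478678, plus strand), which holds SNORD49A, SNORD49B and SNORD65, gave 565, 570 and 550 CPM in parental cells and 598, 608 and 584 CPM in knockout cells. All knockout samples were above the parental ones by a narrow margin (log2 fold change 0.09, SE 0.028, adjusted p = 0.00884). SNHG16, host of SNORD1A, SNORD1B and SNORD1C, was at 72.2, 67.8 and 66.2 CPM against 73.5, 73.2 and 74.5 CPM (log2 fold change 0.10, SE 0.038, adjusted p = 0.0284). SNHG6, host of SNORD87, was at 41.1, 43.1 and 40.6 CPM against 47, 46.4 and 44.3 CPM (log2 fold change 0.14, SE 0.046, adjusted p = 0.0106). None of these 3 calls held in all 14 alternative analyses. SNHG6 missed the threshold only without the first knockout sample (adjusted p = 0.0621). SNHG29 missed it without the third parental (adjusted p = 0.0508) or the second knockout sample (adjusted p = 0.0695). SNHG16 missed it with DESeq2 (adjusted p = 0.0649) and without parental sample 2 or 3 or knockout sample 1 or 3, with adjusted p between 0.0709 and 0.16. All 3 share exon bases with a gene on the opposite strand, where reads cannot be assigned with certainty. For SNHG6 this was MCMDC2 (29.3%), with 102 to 153 counts and a log2 fold change of 0.33 that did not pass (edgeR, adjusted p = 0.0712). For SNHG16 it was ENSG00000284526 (30.6%), with 6 to 14 counts. For SNHG29 it was LRRC75A (12.0%), with 45 to 61 counts.

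SNHG29 made up 44.5 to 48.5% of the summed CPM of the 28 genes, so sums over the class follow it. Including SNHG29 the class summed to 1253 ± 15.8 CPM in the parental line and 1244 ± 15.4 CPM in the knockout (SD, n = 3), a ratio of 0.993. Without SNHG29 the sums were 691 ± 6.07 CPM and 647 ± 10.4 CPM, a ratio of 0.937. Scaled to exon length, SNHG29 was also the most abundant, at 150 CPM per kb in the parental line, followed by SNHG19 at 81.1, GAS5 and SNHG8 at 46.2 each and SNHG6 at 33.4 CPM per kb. At the other end were CYTOR at 0.445, SNHG12 at 0.44, SNHG20 at 0.289 and SNHG31 at 0.276 CPM per kb. The order among neighbours this close was not tested.

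**Figure D2:**
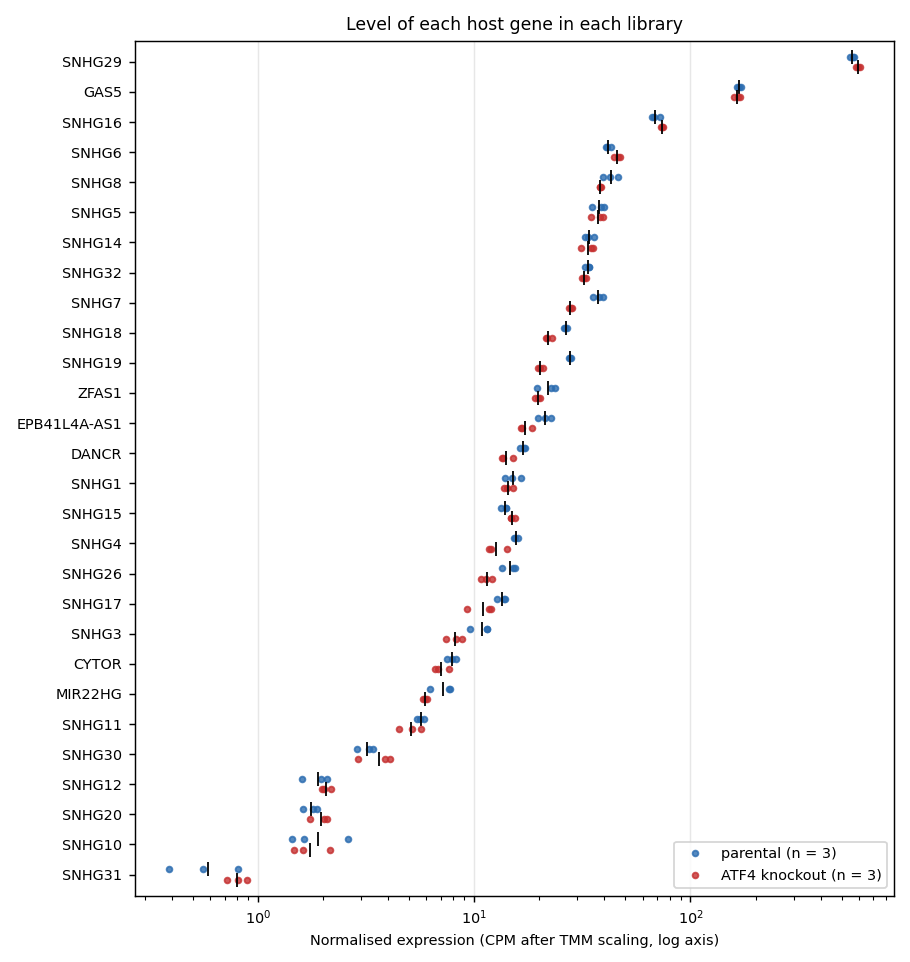
Normalised level of each of the 28 host genes (x axis, CPM on a log scale) in the 3 parental (blue) and 3 ATF4 knockout (red) libraries, with vertical ticks at the group means. SNHG29 stands apart at 550 to 608 CPM, GAS5 lies at 159 to 171 CPM in both groups, and the knockout points of SNHG7 and SNHG19 sit clear to the left of the parental ones.

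GAS5 (chr1:173863900-173868882, minus strand), with 11 snoRNAs the best known of these hosts, was not called. Parental samples gave 164, 168 and 171 CPM and knockout samples 159, 166 and 170 CPM. The groups overlapped, and the log2 fold change of -0.03 had a 95% interval of -0.08 to 0.03, which does not hold a change of the size seen in SNHG7. SNHG5 and SNHG14, the latter the long transcript of the imprinted Prader-Willi region with 83 snoRNAs, were at -0.02 (95% interval -0.12 to 0.08) and -0.01 (-0.11 to 0.09). SNHG32 was at -0.06 and SNHG1, with 9 small RNAs, at -0.07 (adjusted p = 0.456). SNHG15 was at 0.12 and did not pass, although its samples did not overlap (14, 13.3 and 14 CPM against 14.7, 15.4 and 14.7 CPM).

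The less abundant hosts gave wide intervals. CYTOR, a long noncoding RNA linked to the cytoskeleton, was at -0.17 (95% interval -0.37 to 0.02) and SNHG11 at -0.15 (-0.38 to 0.08). SNHG30 was at 0.19, SNHG12 at 0.13, SNHG20 at 0.15 and SNHG10 at -0.13, and none of these passed. Exons of SEC14L1 (3508 to 4043 counts, called lower at -0.15) share 7.6% of the exon bases of SNHG20 on the same strand. Exons of GLRX5 (1348 to 1645 counts, called higher at 0.15) share 20.1% of those of SNHG10 on the opposite strand. Both genes were counted far more often than the host, so the values of SNHG20 and SNHG10 are uncertain. SNHG31, the member closest to the bound on level with a mean of 0.692 CPM, was at 0.552, 0.387 and 0.807 CPM against 0.802, 0.882 and 0.719 CPM, with overlapping groups and a log2 fold change of 0.46 (95% interval -0.16 to 1.09). Just outside the bound were SNHG25 at a mean of 0.390 CPM, SNHG9 at 0.365 CPM and SNHG21 at 0.340 CPM. SNHG25 gave 0.437, 0.387 and 0.522 CPM in parental cells and 0.34, 0.28 and 0.381 CPM in knockout cells, barely apart, with a log2 fold change of -0.42 that did not pass (95% interval -1.18 to 0.34). SNHG22 and SNHG27 had means of 0.0111 and 0.00356 CPM, and SNHG28 was at 0 in every library.

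The hosts were grouped by the snoRNAs annotated within them in RefSeq. Of the 10 hosts of H/ACA snoRNAs without C/D snoRNAs, 7 were lower (SNHG7, SNHG3, EPB41L4A-AS1, SNHG4, SNHG17, DANCR and SNHG8), none was higher, and the median log2 fold change was -0.27, where 20.8% of all tested genes were called lower and 21.2% higher. SNHG15, SNHG11 and SNHG31 were the other 3. Of the 12 hosts of C/D snoRNAs without H/ACA snoRNAs, 4 were lower (SNHG19, SNHG26, SNHG18 and ZFAS1), 3 were higher, and the median was -0.04. GAS5 and SNHG12, with both classes, were not called. Of the 4 members with no snoRNA annotated in RefSeq (CYTOR, MIR22HG, SNHG20 and SNHG10), only MIR22HG was called. In GENCODE, SNHG20 and SNHG10 each hold a small Cajal body RNA (scaRNA) gene, SCARNA16 and SCARNA13, which the split leaves out. The split was made with these values in view and the difference between the classes was not tested.

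The snoRNAs themselves were hardly counted. The kit prepares libraries from polyadenylated RNA, and mature snoRNAs carry no poly(A) tail. Of 136 snoRNA or scaRNA genes inside the 28 hosts that have a row in the table, 12 had at least 1 count in any library. The highest was 24 counts, for SNORA73B in SNHG3. Summed over all of them, the 3 parental libraries held 35, 38 and 41 counts and the 3 knockout libraries 33, 35 and 22. The snoRNA genes that overlap annotated exons of their host had no counts, apart from 1 count of SNORD48 in SNHG32. How reads shared with the host were counted is unknown here, so these low counts may also reflect the counting. None of the 136 lies in GAS5. Levels of the guide RNAs therefore cannot be read from these data, and every value given here is for the spliced host RNA and any unspliced precursor.

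MIR22HG (chr17:1711493-1717174, minus strand) carries no snoRNA but the hairpin of miR-22. Parental samples gave 7.59, 6.25 and 7.74 CPM and knockout samples 5.79, 5.92 and 6.05 CPM, a log2 fold change of -0.28 (SE 0.107, adjusted p = 0.03). The groups did not overlap, but the second parental sample lay close to the knockout range, and the call was lost in 6 of 14 alternative analyses, including those without parental sample 1 (adjusted p = 0.117) or 3 (adjusted p = 0.126) and without knockout sample 1 (adjusted p = 0.0693) or 2 (adjusted p = 0.0696). The mature microRNAs of the hairpin are given from the RefSeq table (GRCh38.p14) with the seed, bases 2 to 8, in capitals. The row of the MIR22 gene itself was at 0 counts.
hsa-miR-22-5p, chr17:1713952-1713973, minus strand: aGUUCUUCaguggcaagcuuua
hsa-miR-22-3p, chr17:1713914-1713935, minus strand: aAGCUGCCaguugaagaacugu

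The starts of the 6 called members with the smallest p-values are shown, because the 5′TOP motif is defined at the first base of the RNA. Windows of 60 bases, 35 before the RefSeq start and 25 from it, come from the RefSeq promoter table (GRCh38.p14), which held 26 of the 28 members. Capitals mark the sequence TATAAA and the 5′TOP motif, written here as a cytosine at the annotated start followed by at least 4 pyrimidines.
SNHG7, chr9:136728160-136728219, minus strand: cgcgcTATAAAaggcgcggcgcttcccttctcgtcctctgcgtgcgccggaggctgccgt
SNHG19, chr16:2155334-2155393, minus strand: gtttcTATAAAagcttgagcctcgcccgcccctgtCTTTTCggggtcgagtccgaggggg
SNHG26, chr7:22854205-22854264, plus strand: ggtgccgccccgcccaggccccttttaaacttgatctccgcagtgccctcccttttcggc
SNHG18, chr5:9546165-9546224, plus strand: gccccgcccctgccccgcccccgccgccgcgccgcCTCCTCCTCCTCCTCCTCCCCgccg
EPB41L4A-AS1, chr5:112160491-112160550, plus strand: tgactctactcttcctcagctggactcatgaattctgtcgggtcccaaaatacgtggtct
SNHG3, chr1:28505908-28505967, plus strand: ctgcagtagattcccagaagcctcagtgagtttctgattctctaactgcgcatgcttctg

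A 5′TOP motif at the annotated start was found in 7 of the 26 members (26.9%) and in 4.07% of the 35116 promoters of the table. The 7 were SNHG12, SNHG18, SNHG19, SNHG32, SNHG4, SNHG5 and ZFAS1. 4 of the 12 members called lower, none of the 2 called higher with a window and 3 of the 12 that did not pass had the motif. The match depends on the exact start: a start placed a few bases off gives none, and the RefSeq and GENCODE starts of ZFAS1 are 464 bases apart. TATAAA, searched on the strand of the gene between 45 and 10 bases before the start, was in 2 members (SNHG19 and SNHG7, 7.69%) and in 2.43% of all promoters.

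3 further motifs were searched on both strands of the 300-base windows, which reach from 250 bases before the start to 50 after it. CACGTG, the E-box that MYC and related factors bind, was in 2 members (SNHG30 and SNHG7, 7.69%) and in 7.26% of all promoters. CCAAT was in 9 members, 34.6% both of the members and of all promoters. TGATGNAA, the core of the composite site of ATF4 and C/EBP factors, was in none of the 26 windows and in 3.62% of all promoters. A window without a match shows only that these letters are not in it.

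Several hosts share their start region with a protein-coding gene, which allows the RNAs made from either side to be compared within each sample. 8 members were paired with such a gene. Neighbours were sought among tested genes that start within 1000 bases on the opposite strand, which gave all pairs but 1. In that pair SNHG3 starts 37 bases from RCC1 on the same strand, and their exons overlap. Same-strand starts without shared exons were not searched. For each pair the log2 ratio of host to neighbour was compared between groups with a two-sided exact permutation test, in which the smallest p that 3 against 3 samples allow is 0.10. Adjusted over the 8 pairs by the Benjamini-Hochberg method, no p was below 0.20.

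SNHG1 starts 188 bases from SLC3A2, the heavy chain of the LAT1 and xCT amino acid transporters. SLC3A2 gave 225, 243 and 247 CPM in parental cells and 96.2, 102 and 98.2 CPM in knockout cells (log2 fold change -1.27, SE 0.033, adjusted p = 2.279e-32), whereas SNHG1 was at -0.07 and did not pass. The log2 ratio of SNHG1 to SLC3A2 was -3.98 ± 0.07 in the parental line and -2.79 ± 0.02 in the knockout (SD, n = 3), a difference of 1.19 (exact permutation p = 0.10, the smallest possible). The ratios of the groups did not overlap.

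SNHG3 and RCC1, the exchange factor of the Ran GTPase, were called in opposite directions. RCC1 gave 56.4, 51.4 and 57.2 CPM in parental cells and 70, 70.4 and 67.3 CPM in knockout cells (log2 fold change 0.33, adjusted p = 1.685e-09). The log2 ratio of SNHG3 to RCC1 was lower in the knockout by a difference of -0.74, without overlap (exact permutation p = 0.10). SNHG3 shares 5.9% of its exon bases with RCC1 on the same strand, and 2261 to 3271 reads were counted for RCC1 per library. Reads in the shared stretch cannot be assigned with certainty, which leaves the ratio uncertain too.

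SNHG18 and the semaphorin gene SEMA5A, whose starts are 125 bases apart, were also called in opposite directions. SEMA5A was at 7.33 ± 0.516 CPM in the parental line and 10.1 ± 1.06 CPM in the knockout (log2 fold change 0.46), and the log2 ratio differed by -0.72 (exact permutation p = 0.10). SNHG19 starts 340 bases from TRAF7, a ubiquitin ligase gene that did not pass the test (log2 fold change 0.05). The log2 ratio of SNHG19 to TRAF7 was -1.90, -1.88 and -1.90 in parental cells and -2.40, -2.40 and -2.41 in knockout cells, a difference of -0.51 (exact permutation p = 0.10). These 4 pairs were the ones whose ratios did not overlap. Among single tested genes, all knockout values lay below the parental ones in 24.3% and above them in 25.3%. How often the ratios of other gene pairs separate was not tested, so the count of pairs is only a description.

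In the other 4 pairs the ratios overlapped. ZFAS1 and ZNFX1, a helicase gene 248 bases away, were both called lower (ZNFX1 log2 fold change -0.36), and their ratio differed by 0.21 (exact permutation p = 0.20). Exons of ZNFX1, for which 5222 to 7109 reads were counted per library, share 11.1% of the exon bases of ZFAS1 on the opposite strand, so reads there cannot be assigned with certainty. For MIR22HG and WDR81 the difference was -0.18 (exact permutation p = 0.30), for SNHG31 and BARD1 it was -0.34 (exact permutation p = 0.20) and for GAS5 and ZBTB37 it was -0.10 (exact permutation p = 0.50). BARD1 itself was at 6.98 ± 1.24 CPM in the parental line and 12.6 ± 0.615 CPM in the knockout (log2 fold change 0.85).

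**Figure D3:**
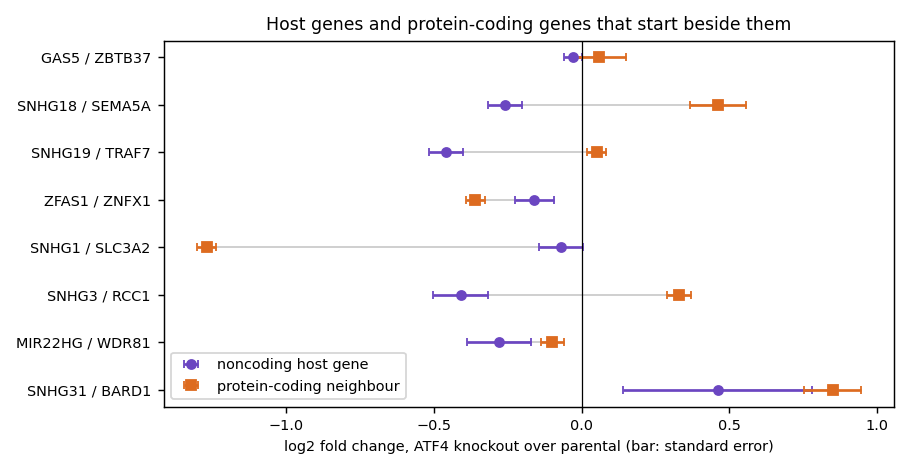
Log2 fold change, ATF4 knockout over parental (x axis), of 8 host genes (purple circles) and the protein-coding genes that start within 1000 bases of them (orange squares), with bars for the standard error of the edgeR estimate (n = 3 per group). SLC3A2 lies at -1.27 while SNHG1 lies at -0.07, and RCC1 and SEMA5A lie to the right of 0 while SNHG3 and SNHG18 lie to the left.

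Each member was also set against its surroundings on the chromosome. The median log2 fold change of the 50 tested genes on either side was removed and the test repeated. 10 members were then called lower, against 18.2% of all tested genes, and 1 was called higher, against 17.9%. The median of the 28 genes was -0.09 and that of all tested genes 0.00. The neighbours of SNHG18 had a median of 0.27, and SNHG18 went from -0.26 to -0.53 (adjusted p = 2.005e-11). The neighbours of SNHG8 had a median of 0.09, and SNHG8 went from -0.16 to -0.25.

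The calls of SNHG17, ZFAS1, SNHG29 and SNHG16 were lost against their neighbours. SNHG17 and SNHG11 lie close together on chromosome 20, where the neighbours had a median of -0.17, and SNHG17 went from -0.28 to -0.11 (adjusted p = 0.31). ZFAS1, further along the same chromosome beside neighbours at -0.19, went to 0.03. SNHG29 went to 0.05 (adjusted p = 0.173) and SNHG16, beside neighbours at 0.14, to -0.04. SNHG6 was the 1 member still called higher, at 0.13 (adjusted p = 0.0204). SEMA5A, the neighbour of SNHG18, was at 0.19 by this measure and was no longer called.

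8 of the 12 members called lower were called lower in all 14 alternative analyses: SNHG7, SNHG18, SNHG19, EPB41L4A-AS1, DANCR, SNHG4, SNHG26 and SNHG3. Across these alternatives SNHG7 ranged from -0.50 to -0.39 and SNHG19 from -0.52 to -0.43.

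6 lists of related genes are given beside the same 21.2% called higher and 20.8% called lower of all tested genes, whose median was 0.01. Of 24 tested genes of the snoRNP core and its assembly factors, which bind and mature snoRNAs, 12 (50%) were higher and 2 (8.33%) lower, with a median log2 fold change of 0.13. Among those higher were RUVBL2, an ATPase of the assembly complex (0.32), and the nucleolar chaperones NOLC1 (0.21) and TCOF1 (0.19). The 2 that were lower were SNU13, the core protein that binds the C and D boxes (-0.24), and NOP53, a ribosome biogenesis factor (-0.09). SNU13 was at 0.03 once its neighbours were removed.

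Among 24 factors of nonsense-mediated decay, the pathway that removes many host RNAs, 12 (50%) were higher and 1 (4.17%) lower, with a median of 0.07. With neighbours removed, 8 were higher and 1 lower. The decapping enzyme DCP2 was at 0.47, UPF2 at 0.41, and the exon junction proteins RBM8A and EIF4A3 at 0.31 and 0.24. UPF1, the helicase of the pathway, was the 1 called lower, at -0.10 (adjusted p = 0.0051).

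Of 45 protein-coding hosts of snoRNAs tested, 9 (20%) were higher and 12 (26.7%) lower, with a median of 0.00, shares near those of all tested genes. The 4 with the smallest p-values were lower: RPL10 (-0.31), RPS12 (-0.26), EIF4A2 (-0.25) and RPL27A (-0.24). With neighbours removed, RPL10 was at -0.14 and RPL27A at -0.03, no longer called (adjusted p = 0.475). RPL3, which encodes a ribosomal protein, went from -0.18, called lower, to 0.08, called higher (adjusted p = 0.0229), and HSPA8, a chaperone gene, from -0.08 to 0.08, likewise from lower to higher (adjusted p = 0.0221). Of 23 mRNAs of translation factors and other proteins known to carry a 5′TOP, 11 (47.8%) were lower and 3 (13%) higher, with a median of -0.06. EIF2S3, a subunit of the initiator tRNA carrier, was at -0.68 and the eIF3 subunits EIF3D, EIF3L and EIF3F at -0.44, -0.33 and -0.27, while EEF1B2 (0.14), VIM (0.10) and HNRNPA1 (0.07) were higher. With neighbours removed, 8 were lower and 1 higher. EIF2S3 was then at -0.43 and EIF3D at -0.17, and the calls of EIF3L (-0.07, adjusted p = 0.0553), EIF3F (-0.05, adjusted p = 0.228), VIM (-0.01) and HNRNPA1 (0.07) were lost. Of 84 genes of cytosolic ribosomal proteins and their paralogs, 25 (29.8%) were lower and 10 (11.9%) higher, with a median of -0.02. RPS4X (-0.46), RPL10 (-0.31) and RPS21 (-0.27) were among the lower, and RPL22L1, a paralog of RPL22, was higher (0.49). With neighbours removed, RPS4X was at -0.24 and RPS21 at -0.10, both still lower, and 26 genes of the list were lower and 5 higher.

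Of 11 other noncoding genes that host microRNAs, 3 (27.3%) were lower and 2 (18.2%) higher, with a median of -0.27. With neighbours removed, 3 were lower and 3 higher and the median was -0.02. MIR4435-2HG gave 51.8, 49.9 and 48.2 CPM in parental cells and 35, 34.1 and 37.5 CPM in knockout cells (log2 fold change -0.49, adjusted p = 8.362e-13). It is a near-identical copy of CYTOR, so reads from either can be lost or shared between them and both values are uncertain. MIR99AHG (-0.73, and -0.46 with neighbours removed) and MIR23AHG (-0.27) were also lower, and MIR31HG (0.75) and MIR193BHG (0.45) were higher.

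**Figure D4:**
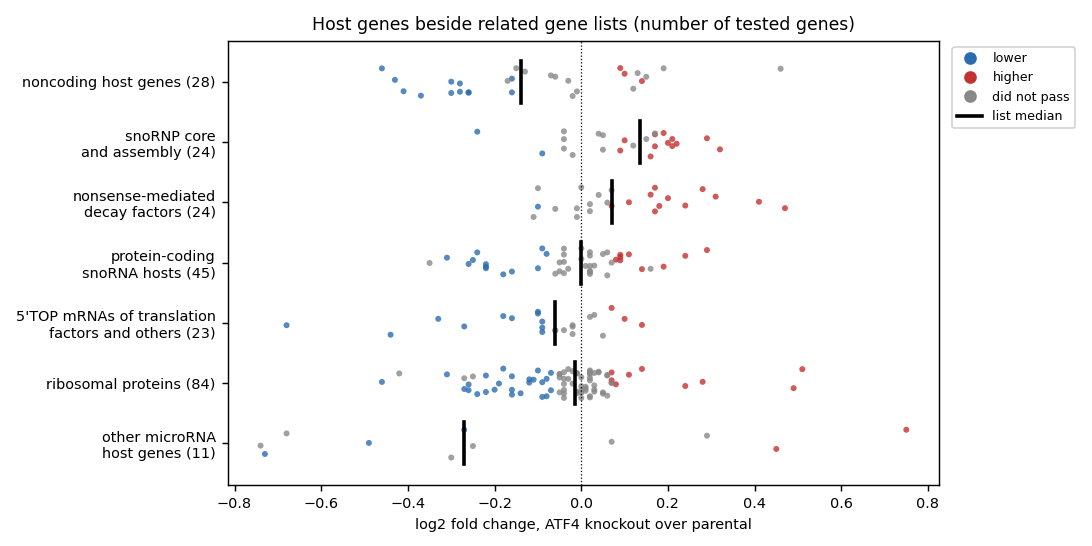
Log2 fold change, ATF4 knockout over parental (x axis), of every tested gene in the noncoding host genes and 6 related lists (rows, number of tested genes in brackets), coloured by the edgeR call at an adjusted p below 0.05, with a vertical bar at each list's median. The noncoding hosts have a median of -0.14, the snoRNP genes 0.13 and the nonsense-mediated decay factors 0.07.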

How the data were processed

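Total RNA of RCC4 cells went into stranded mRNA libraries. The authors deposited 1 table of unnormalised read counts, with a row for each Ensembl gene and a column for each sample. The submitters' processing notes name bcl2fastq 2.20, cutadapt, STAR, HTSeq and GRCh38. Other versions, the annotation release and the strand setting are unknown here, so counts of overlapping and near-identical genes are uncertain. Symbols came from a gene name table (60370 identifiers) and GENCODE 29 (289). The members and the gene lists were chosen with earlier results of these data known.

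Genes were filtered with filterByExpr, scaled by TMM and tested with edgeR 4.0.16 (quasi-likelihood, robust, no replicate term) in R 4.3.3, with Benjamini-Hochberg adjustment over 15321 genes and calls at adjusted p below 0.05. The test was also run on simulated counts with the same spread for all genes, so its outcome there need not hold for these libraries. Fold changes are knockout over parental. CPM values are TMM-scaled, and the 0.5 CPM bound used total counts. Intervals are 95% intervals of the fit. Alternatives were DESeq2 size factors, total counts, no filter, at least 1 CPM in all samples, DESeq2 1.42.0, limma-voom (limma 3.58.1), a replicate block, removal of the median of the 50 tested genes on either side, each sample left out, and a member bound of 2 CPM. All members were named. Values per sample were given for called members at an absolute log2 fold change of at least 0.3, the 3 most abundant and those nearest the bound. In lists, the 4 smallest p-values, calls of at least 2-fold and all calls in counts of 5 or fewer were named. Which other genes were named or got values per sample was decided with those values in view. Same-numbered samples did not deviate together (r = -0.014, 0.032 and -0.006), so the numbers were not taken to pair samples.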

Additional observations from a re-analysis of the deposited data

How the results depend on the processing

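Members called lower numbered 9 to 11 and called higher 1 to 3 with 1 sample left out, 10 and 2 with DESeq2, and 10 and 3 with total counts only. The median of the members was -0.11 with total counts, -0.09 with the neighbours' median removed (1 member higher), -0.16 for members of at least 2 CPM and -0.13 to -0.1 with 1 sample left out. With the replicate block, 11 members were lower and 3 higher, with a median of -0.13. Over the lists, 32 to 42 genes were higher and 36 to 45 lower with 1 sample left out, 56 and 36 with total counts, and 35 and 41 with neighbours removed, against 45 and 43. The single values of members kept direction and side of the threshold in 351 cases, lost the call in 28 and turned in 12. Those that turned were SNHG16 (-0.04), ZFAS1 (0.03), SNHG1 (0.07), SNHG11 (0.03) and SNHG5 (0.10) with neighbours removed, SNHG5 (0.01) and SNHG14 (0.02) with total counts, SNHG5 without the second parental (0.02) or first knockout sample (0.03), SNHG14 without the third parental (0.03) or first knockout sample (0.04), and SNHG10 without the third parental sample (0.17). With each sample left out in turn, SNHG5 ranged from -0.07 to 0.03, SNHG14 from -0.05 to 0.04 and SNHG10 from -0.30 to 0.17. Of the called genes in the lists, SNU13 (0.03), VIM (-0.01), RPS6 (-0.02), RPL3 (0.08) and HSPA8 (0.08) turned with neighbours removed, the last 2 into calls in the other direction. The cause was not tested. Hosts under about 2 CPM rest on few reads, which limits them to large changes.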
